A study of Mus musculus with 16 samples.

Results

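The C/EBP family genes examined here are the 5 genes Cebpa, Cebpb, Cebpd, Cebpg and Ddit3, out of 21887 protein-coding genes in the annotation. They were taken by name, as members of the family, under a rule that uses no measured value. ChIP-seq (chromatin immunoprecipitation and sequencing) had been run on mouse liver taken 40 h after partial hepatectomy, an operation that cuts away much of the liver and makes the remaining hepatocytes divide. All animals were at postnatal day 90 of a C57/B6 and 129 mix. The KO livers had the genotype Arid1a Fl/Fl; Alb-cre, in which Cre recombinase is driven by the albumin promoter, active mainly in hepatocytes, and the WT livers were Arid1a Fl/Fl with no Cre listed. Floxed Arid1a alleles were therefore carried by both groups. Arid1a encodes a subunit of SWI/SNF, a complex that moves nucleosomes. The antibodies were against E2f4, an E2F family factor that binds cell cycle genes, with 2 libraries per genotype, and against the histone marks H3K4me2 and H3K27ac, with 1 library per mark and genotype.

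C/EBP proteins are basic leucine zipper transcription factors that bind DNA as pairs, and are among the main regulators of hepatocyte metabolism. C/EBPα is abundant in resting hepatocytes and restrains their division, C/EBPβ is induced after hepatectomy and is needed for normal regeneration in mice, and C/EBPδ takes part in the acute phase response. C/EBPγ and the Ddit3 product, known as CHOP, pair with the other members and alter what the pairs do, CHOP being induced when protein folding in the endoplasmic reticulum fails. Promoters and enhancers carry H3K4me2, and H3K27ac is found at the active ones.

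For each gene, the called regions of each mark over the gene and within 50 kb of its ends were measured as the number of base pairs they cover. No histone value has a replicate check, so those values are descriptions of 4 libraries and carry no test. The files list called regions without read counts, so the depth is unknown, and a region that a list lacks fell short of the calling threshold, which is no measure of absence. Whether Arid1a had been lost cannot be read from such lists. Hepatocytes were isolated after fixation, per the labels' protocols, but each library still pools many cells, so that fewer cells of a type and less signal per cell cannot be told apart.

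On build mm10, Cebpa lay on chromosome 7 from 35119293 to 35121928, and Cebpg on the same chromosome from 35046422 to 35056566, with 62726 bp between the genes. Their windows overlapped by 37274 bp, and 4 regions in each of the 4 histone lists belonged to both windows. Cebpb lay on chromosome 2 from 167688915 to 167690432, Cebpd on chromosome 16 from 15887286 to 15889545, and Ddit3 on chromosome 10 from 127290793 to 127296291. Exons and introns under the regions were not analysed here. The promoter sequences of 4 of the 5 members, from 250 bases before to 50 bases after the start of the gene, are given because all regions over the gene starts described below lie across them and an E2f4 peak reached into the Cebpg one. They come from RefSeq for GRCm38.p6, which has the coordinates of mm10, and are written 5′ to 3′ on the strand of the gene. Capitals mark matches to the motifs searched.
Cebpa (chr7:35119043-35119342, plus strand): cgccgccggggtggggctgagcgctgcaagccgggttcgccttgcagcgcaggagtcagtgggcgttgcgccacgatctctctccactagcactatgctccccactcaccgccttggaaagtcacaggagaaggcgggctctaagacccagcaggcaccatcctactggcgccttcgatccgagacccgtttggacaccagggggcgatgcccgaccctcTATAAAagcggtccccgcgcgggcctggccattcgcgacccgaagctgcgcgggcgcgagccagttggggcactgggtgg
Cebpb (chr2:167688665-167688964, plus strand): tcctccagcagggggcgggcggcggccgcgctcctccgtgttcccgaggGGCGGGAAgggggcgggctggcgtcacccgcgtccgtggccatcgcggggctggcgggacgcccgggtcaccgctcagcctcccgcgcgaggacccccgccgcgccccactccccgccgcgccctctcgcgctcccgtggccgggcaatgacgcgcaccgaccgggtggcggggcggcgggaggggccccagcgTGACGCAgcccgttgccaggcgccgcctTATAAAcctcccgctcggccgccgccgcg
Cebpg (chr7:35056517-35056816, minus strand): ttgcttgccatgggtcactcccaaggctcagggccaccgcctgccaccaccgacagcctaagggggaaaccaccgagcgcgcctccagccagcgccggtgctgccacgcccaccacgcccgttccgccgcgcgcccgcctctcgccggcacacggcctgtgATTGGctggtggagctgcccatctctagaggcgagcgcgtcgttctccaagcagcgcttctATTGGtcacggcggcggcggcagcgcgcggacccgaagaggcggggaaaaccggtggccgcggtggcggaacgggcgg
Ddit3 (chr10:127290543-127290842, plus strand): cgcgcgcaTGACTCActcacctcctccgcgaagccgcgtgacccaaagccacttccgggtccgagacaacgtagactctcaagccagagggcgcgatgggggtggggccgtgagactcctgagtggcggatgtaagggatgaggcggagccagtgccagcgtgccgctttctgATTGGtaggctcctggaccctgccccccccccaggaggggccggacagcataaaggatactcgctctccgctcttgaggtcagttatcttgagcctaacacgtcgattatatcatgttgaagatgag
Cebpd was matched to no promoter sequence.

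The motifs were searched on both strands, and positions count from the first base of the gene as 0. The E2F motifs searched were GGCGGGAA, TTTCCCGC and TTTGGCGC, of which any was present in 4.14% of 21263 promoters of protein-coding genes. Among the members only Cebpb held one, GGCGGGAA at −201 to −194, which 2.85% of promoters hold. The CCAAT box (CCAAT, in 38.2% of promoters) matched the opposite strand at −89 to −85 and −28 to −24 in Cebpg and at −77 to −73 in Ddit3. The TATA box (TATAAA, 12.6%) matched at −30 to −25 in Cebpa and at 21 to 26 in Cebpb. The CRE-like motif TGACGCA (2.57%) matched next to the Cebpb start at −7 to −1, and the AP-1 motif TGACTCA (4.66%) matched at −242 to −236 in Ddit3. Neither the C/EBP motif TTGCNNAA (10.17%) nor the CRE motif TGACGTCA (2.23%) matched in these 4 windows. All 4 promoters were rich in G and C, with 67.3% in Cebpa, 80.7% in Cebpb, 71.7% in Cebpg and 60.7% in Ddit3, against a median of 56.3% over all promoters. They held 29, 50, 38 and 22 CpG dinucleotides in the same gene order, against a median of 13.

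The starts of all 5 genes lay inside wide regions of both marks in both genotypes. The gene bodies of Cebpa, Cebpb and Cebpd, which are intronless genes, were covered over 100% of their length by each mark in each genotype. Cebpg was covered by H3K4me2 over 81.2% of its length in KO and 79.0% in WT, and by H3K27ac over 52.5% in KO and 64.0% in WT. Ddit3 was covered by H3K4me2 over 62.8% of its length in KO and 53.0% in WT, and by H3K27ac over 82.7% in KO and 88.0% in WT. The H3K4me2 regions at the starts were 5598 to 10071 bp wide in KO and 5529 to 8363 bp wide in WT, and the H3K27ac ones 5073 to 14246 bp in KO and 6780 to 17121 bp in WT. Each was wider than at least 92.7% of the regions in its list, and each was among the strongest 13.7% of its list by −log10 q-value. For Cebpd, whose strand was not given, the region over the lower-coordinate end of the gene was taken.

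**Figure D1:**
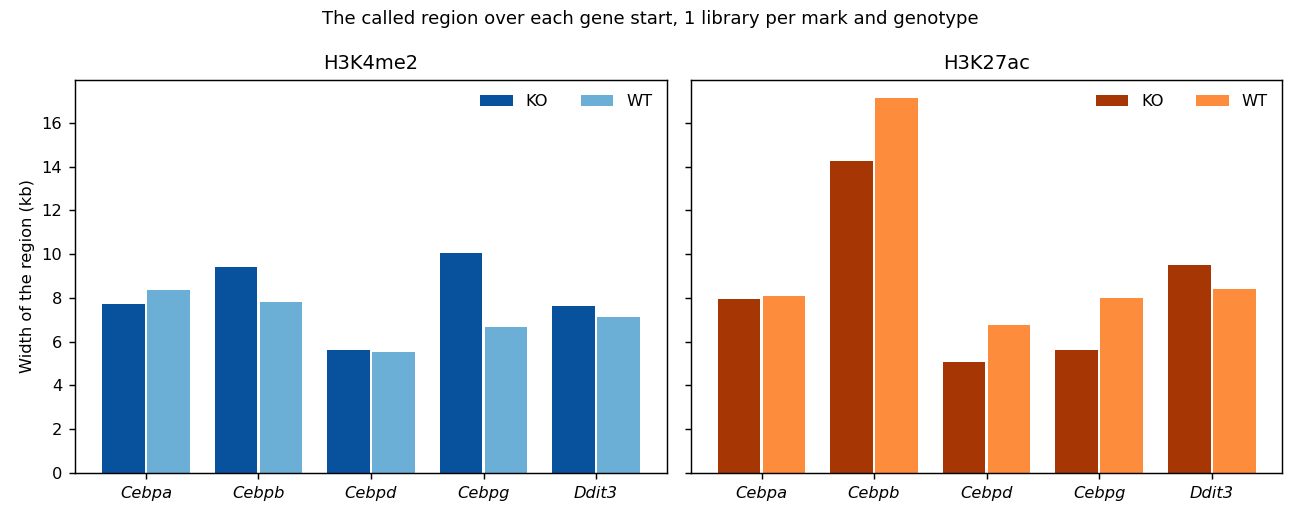
Width in kb of the called region over the start of each gene (for Cebpd, over its lower-coordinate end), for KO and WT, with H3K4me2 on the left and H3K27ac on the right. Bars are values of 1 library each, and the widest is the H3K27ac region at Cebpb, 14.2 kb in KO and 17.1 kb in WT.

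Over the whole windows, no member differed by more than 1.5-fold in H3K4me2, and 1 member, Cebpd, did so in H3K27ac, with the shorter length in KO. The 1.5-fold limit was the size used to call a difference in covered length, and every member passed the filter of at least 1000 bp covered in a library. Over all genes tested, 7.36% were called longer and 3.27% shorter in KO for H3K4me2 (18046 genes), and 7.35% longer and 13.3% shorter for H3K27ac (16955 genes). A count of 1 shorter member in 5 stands beside that 13.3%. H3K4me2 was longer in KO than in WT at 4 of 5 members, with a median log2 ratio of KO over WT of 0.16, and 66.7% of all genes were above 0, with a median of 0.10. Relative to that median shift, the H3K4me2 log2 ratios were −0.12 at Cebpa, 0.04 at Cebpb, 0.09 at Cebpd, 0.11 at Cebpg and 0.05 at Ddit3. H3K27ac was shorter in KO at 4 of 5 members, with a median log2 ratio of −0.27, and 42.7% of all genes were above 0, with a median of −0.06. The covered part of the window had a median over the members of 23.8% in KO and 21.3% in WT for H3K4me2, and 21.8% in KO and 26.2% in WT for H3K27ac. Over all genes these medians were 9.67% in KO and 9.07% in WT for H3K4me2, and 8.50% in KO and 9.18% in WT for H3K27ac.

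**Figure D2:**
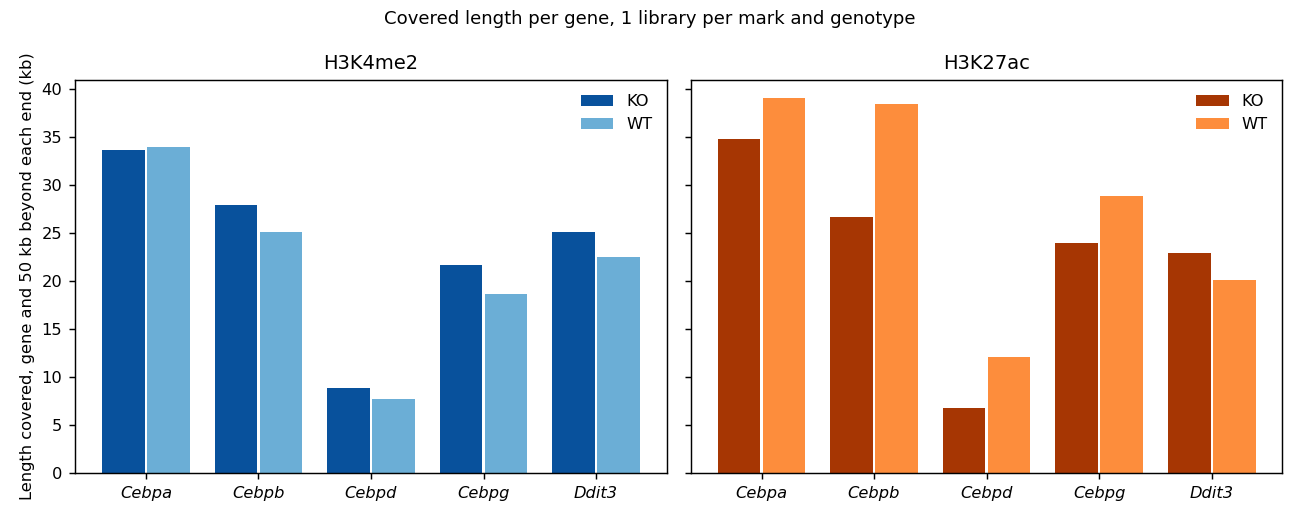
Length in kb covered by H3K4me2 (left) and H3K27ac (right) over each gene and 50 kb beyond each end, in KO and WT, 1 library per bar. The H3K27ac bars of Cebpb are 26.7 kb in KO and 38.5 kb in WT, and those of Cebpd 6.79 kb in KO and 12.1 kb in WT.

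**Figure D3:**
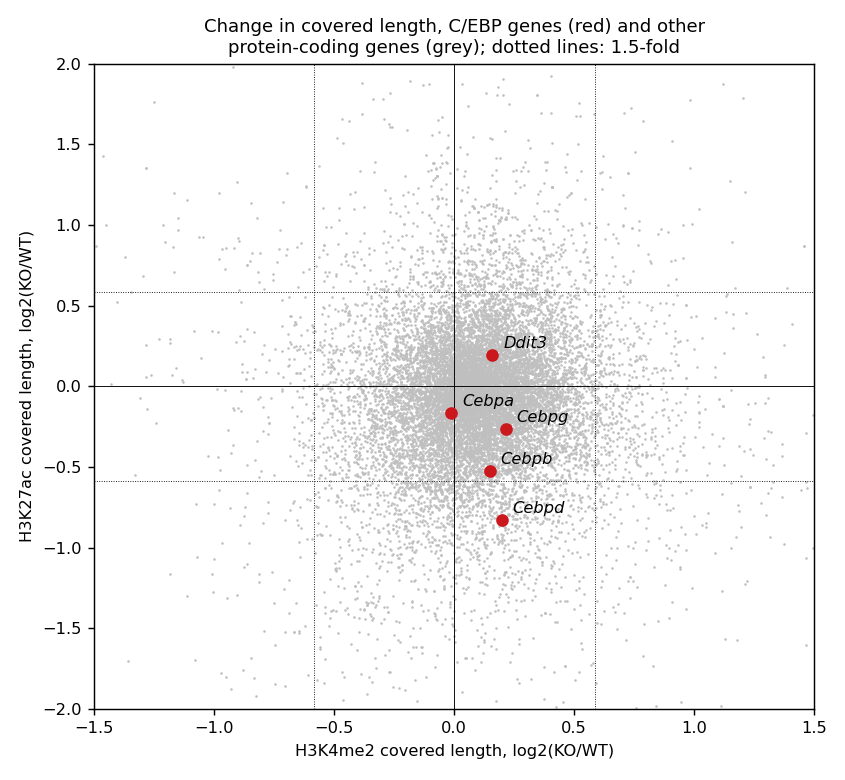
The log2 ratio of KO over WT covered length for H3K4me2 (horizontal axis) and H3K27ac (vertical axis), with the 5 members in red and other protein-coding genes in grey, each gene from 1 library per mark and genotype. Of 16113 genes with at least 1000 bp in all 4 lists, 16007 fall within the axes; the dotted lines mark 1.5-fold, and Cebpd at 0.20 and −0.83 is the member outside them.

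Over the whole libraries, the E2f4 lists held 287 and 683 peaks in KO and 1791 and 1058 in WT, the H3K4me2 lists 73042 regions in KO and 66832 in WT, and the H3K27ac lists 54652 in KO and 63321 in WT. H3K4me2 covered 111.6 Mb in KO and 104.0 Mb in WT in all, and H3K27ac 103.7 Mb in KO and 112.6 Mb in WT. Marker genes of the cell types that a liver sample can hold were summed within 5 kb of their ends. Over all genes within 5 kb, 10.8% were called longer and 5.33% shorter in KO for H3K4me2, and 11.8% longer and 16.5% shorter for H3K27ac. All 10 hepatocyte markers carried both marks in both genotypes, with H3K27ac sums of 203.4 kb in KO and 195.9 kb in WT and H3K4me2 sums of 154.8 kb in KO and 153.8 kb in WT. Of these 10, Serpina1a and Cyp2e1 were called shorter in KO for H3K4me2, and Cyp2e1 also for H3K27ac, with 8549 bp in KO and 14352 bp in WT. The 6 endothelial markers had 103.2 kb of H3K27ac in KO and 144.2 kb in WT, with 3 called shorter, and 82.6 kb of H3K4me2 in KO and 59.9 kb in WT, with 3 called longer. The 5 stellate cell markers had 18.7 kb of H3K27ac in KO and 27.5 kb in WT, with 3 of 4 tested called shorter, and 23.0 kb of H3K4me2 in KO and 11.0 kb in WT, with 3 called longer. These non-hepatocyte sums moved in the same directions as the H3K27ac and H3K4me2 lengths of Cebpb, Cebpd and Cebpg, and their part in the result was not tested. Per the labels' protocols hepatocytes were isolated, and the purity reached was not tested. The 8 lymphocyte markers had 21.2 kb of H3K4me2 in KO and 53.6 kb in WT, with 6 of 7 tested called shorter and Cd3e at 0 in KO. Their H3K27ac sums were 22.2 kb in KO and 22.3 kb in WT. The 7 macrophage markers had 31.8 kb of H3K27ac in KO and 36.0 kb in WT, with 1 of 6 tested called shorter, and 24.0 kb of H3K4me2 in KO and 18.7 kb in WT. For H3K4me2, Cd163, Timd4 and Marco were called longer in KO and Adgre1 shorter, with Timd4 and Marco at 0 in WT, the same direction in sum as at 4 of the 5 members, and their part in the result was not tested. The 6 neutrophil markers had 6.46 kb of H3K27ac in KO and 5.45 kb in WT, with 2 of 3 tested, S100a8 and Ltf, called longer in KO. Their H3K4me2 sums were 5.76 kb in KO and 5.71 kb in WT, with S100a8, 1 of 2 tested, called longer. S100a9 and Ly6g were at 0 for both marks in both genotypes. The 5 cholangiocyte markers had 0 kb of H3K27ac in KO and 1.86 kb in WT, with Sox9, the 1 tested, called shorter. For H3K4me2, 1 of 3 tested, Spp1, was called shorter. Krt19 and Krt7 were at 0 for both marks in both genotypes.

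Cebpa, which encodes the C/EBP factor that restrains hepatocyte division, had the largest marked share of the 5 windows for each mark and genotype. H3K4me2 covered 33731 bp in KO and 34033 bp in WT, a log2 ratio of −0.01. H3K27ac covered 34852 bp in KO and 39065 bp in WT, a log2 ratio of −0.16. These shares were above those of at least 96.9% of all genes in each list, although no other protein-coding gene lay in the window. The region over the gene was nearly equal in the genotypes, 7955 bp in KO and 8073 bp in WT for H3K27ac. A wide H3K27ac region downstream, over non-coding genes, ran from 22.1 to 31.6 kb in KO (9535 bp) and from 21.7 to 31.3 kb in WT (9590 bp). Upstream, a region of 2981 bp in KO and 3646 bp in WT lay between −40.0 and −36.3 kb and carried H3K4me2 in both genotypes. For H3K27ac, 11 sites around Cebpa were called in both genotypes, 1 in KO only and 1 in WT only. For H3K4me2, 12 were called in both and 3 in KO only, of which the widest was 742 bp at 36.8 to 37.5 kb. Over the whole lists, 24.6% of KO and 34.2% of WT H3K27ac regions had no overlapping region in the other genotype. For H3K4me2 these shares were 28.1% and 20.4%. The shared part of the covered length, 77.6% for H3K4me2 and 77.5% for H3K27ac, was above the medians of all genes, 67.2% and 59.8%.

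Cebpb, the member induced during regeneration, had a shorter H3K27ac length in KO that stayed just under the 1.5-fold limit, and the difference lay away from the gene. H3K27ac covered 26714 bp in KO and 38532 bp in WT, so that WT was 1.44 times as long (log2 ratio −0.53). With regions of −log10 q-value below 5 left out the log2 ratio was −1.03, past the limit, and with those below 10 left out it was −0.27, within it. Leaving out those below 5 dropped KO regions of 3679 and 2985 bp (−log10 q-values 3.92 and 2.95). The WT regions that overlap them, of 7290 and 17121 bp, stayed (5.98 and 20.8). Within 10 kb of the gene the lengths were 14939 bp in KO and 15043 bp in WT. Upstream of the gene they were 11510 bp in KO and 13868 bp in WT, and downstream 13686 bp in KO and 23146 bp in WT. The region over the gene itself was 14246 bp wide in KO, ending at 10.1 kb, with a separate region of 2985 bp behind it, and a single region of 17121 bp in WT, ending at 13.6 kb. This region also lay over the start of the non-coding gene A530013C23Rik. Beyond it, between 21.4 and 34.8 kb downstream and outside any annotated gene, KO had 3 H3K27ac regions of 473, 1135 and 295 bp, and WT had 4 of 1511, 2829, 770 and 5094 bp.

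The widest of those WT regions, chr2:167718627-167723720, overlapped no H3K27ac region of the KO list. It had an authors' fold enrichment of 5.71 and a −log10 q-value of 7.65 in the WT list. Of the 4010 H3K27ac regions of WT that were at least as wide, 21 (0.524%) had no overlapping KO region, and of the 11345 at least as strong by −log10 q-value, 197 (1.74%) had none. This region was singled out after its values were seen. H3K4me2 was called inside it at 904 bp in KO and at 1452 and 542 bp in WT, and the region of 1452 bp was not called in KO. Along the same stretch of 21.3 to 34.0 kb, H3K4me2 was called in 5 regions of 499 to 1148 bp in KO and 4 regions of 542 to 1873 bp in WT. Over the whole Cebpb window H3K4me2 covered 27904 bp in KO and 25172 bp in WT, a log2 ratio of 0.15. Upstream, over the coding gene Tmem189, a region called in both marks was 7552 bp of H3K4me2 in KO and 7974 bp in WT, while its H3K27ac was called in KO as 2 pieces of 3679 and 1588 bp and in WT as 1 region of 7290 bp.

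Cebpd, the acute phase member, had the smallest marked window and was the member called for H3K27ac. H3K27ac covered 6785 bp in KO and 12062 bp in WT, so that WT was 1.78 times as long, a log2 ratio of −0.83. H3K4me2 covered 8886 bp in KO and 7747 bp in WT, a log2 ratio of 0.20, so the marks moved in opposite directions over the whole window. Most of that H3K4me2 difference lay at the neighbouring gene Mzt2, in a region of 3059 bp in KO and 2218 bp in WT. Within 5 kb and within 10 kb of Cebpd, H3K4me2 was nearly equal, 5598 bp in KO and 5529 bp in WT (log2 ratio 0.02). The H3K27ac region over the gene was 5073 bp wide in KO and 6780 bp in WT. In the WT list it ranked 94 of 63321 by −log10 q-value, the strongest start region of the 5 members in that list. Most of the difference lay on the higher-coordinate side of the gene, where H3K27ac covered 2070 bp in KO and 6731 bp in WT, within the neighbouring gene Spidr. There WT had 6 further H3K27ac regions of 148 to 963 bp that were not called in KO, with authors' fold enrichments of 3.03 to 3.90, and KO had 1 of 158 bp that was not called in WT. Across the whole lists, 34.2% of WT H3K27ac regions had no overlapping KO region and 24.6% of KO ones had no overlapping WT region. In the WT list the median width was 495 bp for regions without a KO region and 1575 bp for regions with one. An H3K27ac region over the higher-coordinate end of Mzt2, −24.9 kb from Cebpd, was 1554 bp in KO and 1557 bp in WT. Within 5 kb of Cebpd the H3K27ac lengths were 5231 bp in KO and 7434 bp in WT, which is under the 1.5-fold limit (log2 ratio −0.51). Within 10 kb they were 5231 bp in KO and 8334 bp in WT, past the limit (log2 ratio −0.67). With regions below a −log10 q-value of 5 left out the log2 ratio was −0.33, since the 6 WT regions and the KO region within Spidr all fell below it. With those below 10 left out it was −0.03, because the region at Mzt2 then stayed in the KO list (−log10 q-value 15.0) and not in the WT list (8.16), while the regions over the gene were still 5073 bp in KO and 6780 bp in WT.

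**Figure D4:**
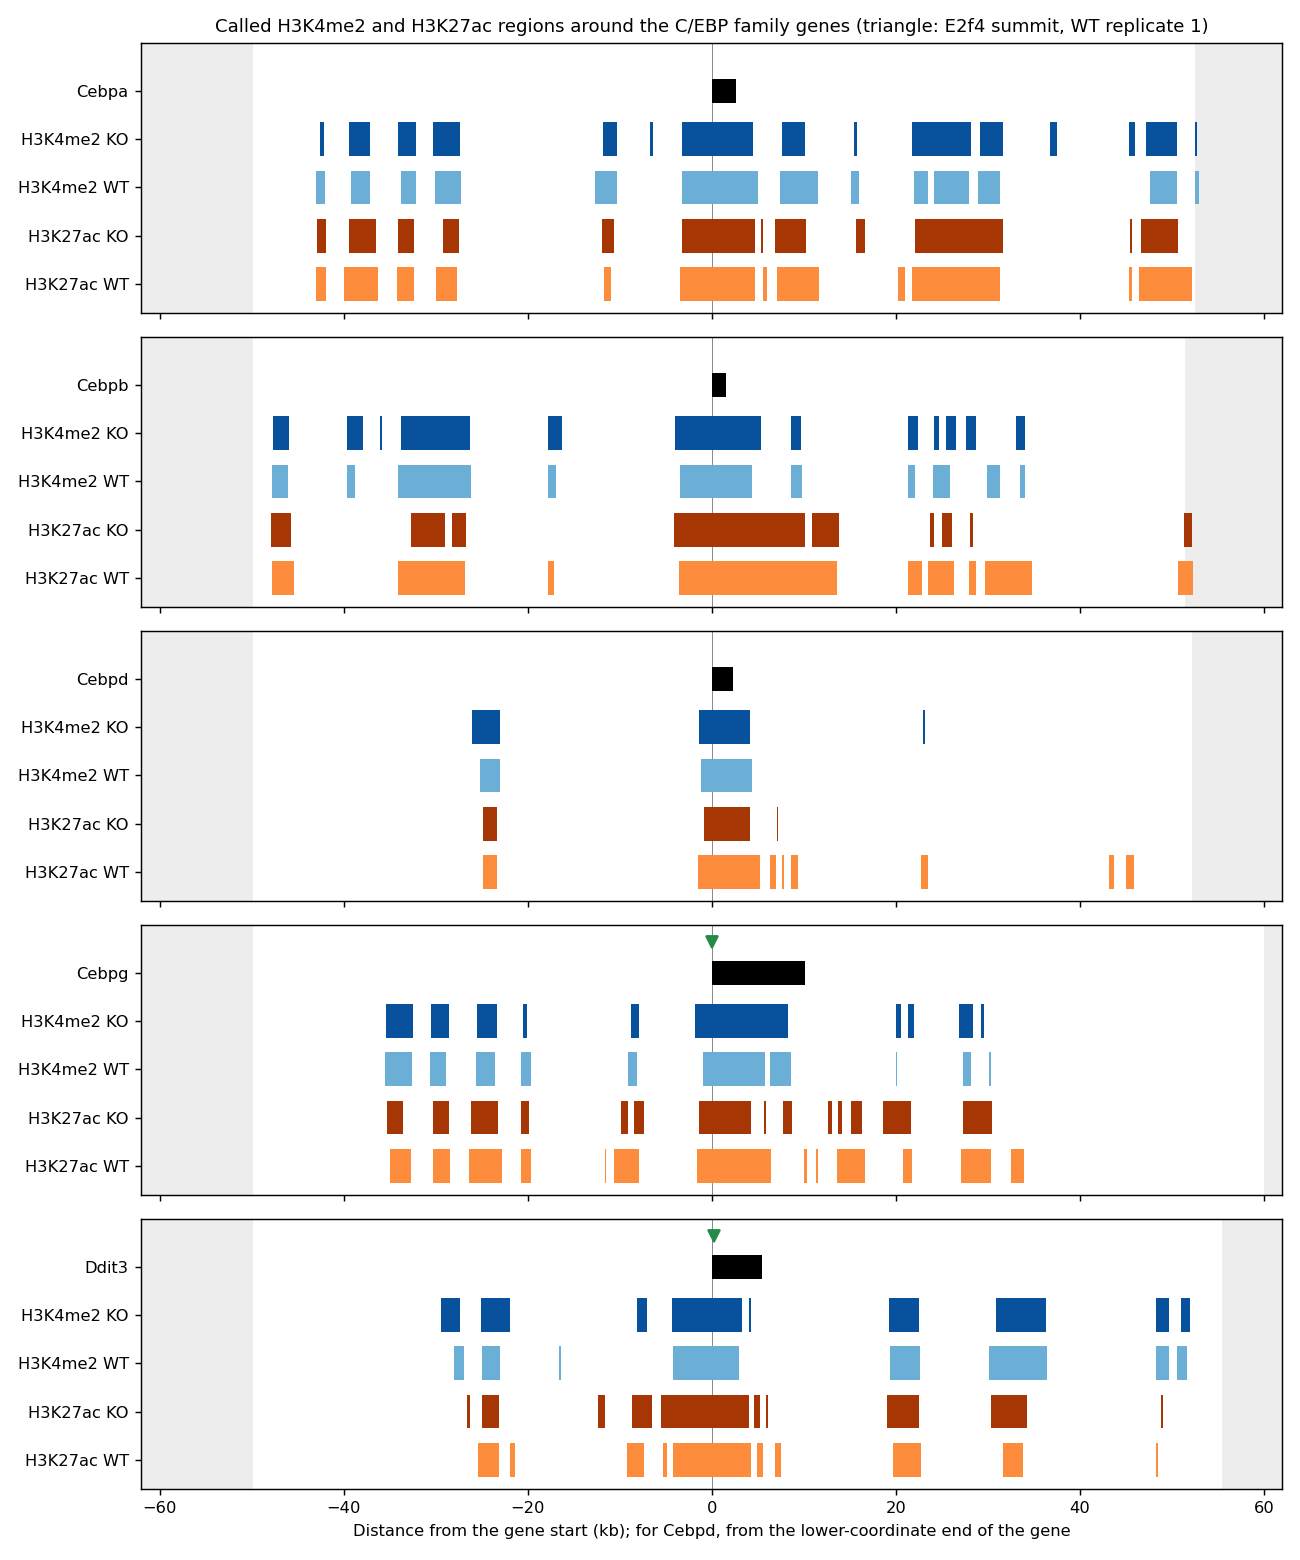
Called regions of each mark in KO and WT around each gene, drawn by distance in kb from the gene start in the direction of transcription (for Cebpd, from the lower-coordinate end); black bars are the genes, grey areas lie beyond the 50 kb windows, and triangles are E2f4 summits of WT replicate 1. At Cebpb the WT H3K27ac region at 29.7 to 34.8 kb has no KO counterpart, and at Cebpd 6 narrow WT H3K27ac regions have none. In the whole WT H3K27ac list 34.2% of regions have none.

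Cebpg, which encodes a C/EBP protein that acts mainly as a partner of the others, had more H3K4me2 and less H3K27ac in KO, both within 1.5-fold. H3K4me2 covered 21655 bp in KO and 18654 bp in WT, a log2 ratio of 0.22. The H3K4me2 region over its start was 10071 bp wide in KO, while in WT the same stretch was called as 2 regions of 6670 and 2288 bp. H3K27ac covered 24037 bp in KO and 28887 bp in WT, a log2 ratio of −0.27. The H3K27ac region over its start was 5623 bp wide in KO and 7993 bp in WT, and it also lay over the start of the coding gene Gm45095. With regions of −log10 q-value below 5 or below 10 left out, the log2 ratio of H3K27ac was −0.80, past the 1.5-fold limit. That of H3K4me2 was 0.46 with regions below 5 left out and 0.71, past the limit in the other direction, with those below 10 left out.

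Ddit3, the CHOP gene of the stress response, was the only one of the 5 with a longer H3K27ac length in KO, 22980 bp in KO and 20099 bp in WT, a log2 ratio of 0.19. Within 5 kb its lengths were 9759 bp in KO and 9893 bp in WT. H3K4me2 covered 25096 bp in KO and 22485 bp in WT, a log2 ratio of 0.16. The region over its start, shared with the adjacent gene Mbd6, was 9510 bp of H3K27ac in KO and 8418 bp in WT. Its window was the most crowded, with the coding genes Kif5a, Dctn2, Mbd6, Mars1, Arhgap9 and Gli1, and the H3K27ac at the start of Mars1 was 3486 bp in KO and 2956 bp in WT. Around Ddit3, 6 H3K27ac sites were called in both genotypes, 4 in KO only and 3 in WT only. Regions without an overlap made up 24.6% of the whole KO list and 34.2% of the WT list.

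The length of H3K27ac per length of H3K4me2 moved slightly in the other direction between the genotypes at Ddit3 than at the other members. It was lower in KO at Cebpa (1.03 in KO and 1.15 in WT), Cebpb (0.957 in KO and 1.53 in WT), Cebpd (0.764 in KO and 1.56 in WT) and Cebpg (1.11 in KO and 1.55 in WT). At Ddit3 it was 0.916 in KO and 0.894 in WT, and this KO value lay between those of Cebpd and Cebpb. The median over all genes was 0.807 in KO and 0.913 in WT, so that the same direction was present across the lists. All 4 values of the other members exceeded the median of all genes in WT, and Cebpd alone was below it in KO.

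Counted as regions, the marks overlapped between genotypes at the members much as they did elsewhere. Of 44 distinct H3K27ac regions of KO in the windows, 36 overlapped a WT region (81.8%, exact Clopper-Pearson 95% interval 67.3 to 91.8), and of 48 of WT, 31 overlapped a KO region (64.6%, 49.5 to 77.8). The shares without an overlap in the whole lists were 24.6% in KO and 34.2% in WT. Of 45 distinct H3K4me2 regions of KO, 35 overlapped a WT region (77.8%, 62.9 to 88.8), and of 39 of WT, 36 overlapped a KO region (92.3%, 79.1 to 98.4). The whole lists had 28.1% in KO and 20.4% in WT without an overlap. H3K4me2 regions that also carried H3K27ac numbered 32 of 45 in KO (71.1%, 55.7 to 83.6) and 32 of 39 in WT (82.1%, 66.5 to 92.5), against 56% of all regions in KO and 64% in WT. In the other direction, 32 of 44 H3K27ac regions in KO (72.7%, 57.2 to 85.0) and 26 of 48 in WT (54.2%, 39.2 to 68.6) carried H3K4me2, against 71.4% of all in KO and 65.1% in WT. All of these intervals contain the share of the whole list except that of H3K4me2 regions with H3K27ac in WT, whose lower bound of 66.5% was above it. The intervals cover counting error only, and neighbouring regions are not independent.

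E2f4 summits lay in the windows of Cebpg and Ddit3, each called in WT replicate 1 alone. KO libraries had 0 and 0 summits in the 5 windows and WT libraries had 2 and 0. A two-sided exact permutation test of the difference of −1 in mean number, with 6 ways to assign the libraries, gave p = 1, and the smallest p this design allows is 0.333. With summits in 1 library alone, all 6 assignments give a difference of the same size. This p was therefore fixed by the counts and decides nothing. Without WT replicate 1 no library had a summit in these windows. Over all genes a summit lay in the window of 3.86% in KO replicate 1, 10.1% in KO replicate 2, 21.1% in WT replicate 1 and 14.9% in WT replicate 2, so that 2 members in WT replicate 1 stand beside 21.1%. Separate animals are not stated for the replicates, whose spread can therefore be technical.

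The Cebpg peak, chr7:35056464-35056669, was 206 bp wide with its summit 13 bp inside the start of the gene, and 153 of its bases lie in the promoter sequence printed above. It had an authors' fold enrichment of 8.88 and ranked 622 of 1791 in its list. No searched E2F motif matched the Cebpg promoter. Gm45095 overlaps this site, so the peak cannot be given to either gene. The Ddit3 peak, chr10:127291004-127291147, was 144 bp wide with its summit 281 bp past the start, 162 bp beyond the printed promoter. It had a fold enrichment of 5.97 and ranked 1125. Both summits lay within H3K4me2 and H3K27ac regions of both genotypes. Of the 1170 peaks of WT replicate 1 that were as weak as the Cebpg peak or weaker, 20.4% were called in WT replicate 2, 1.11% in KO replicate 1 and 9.74% in KO replicate 2. Of the 667 as weak as the Ddit3 peak or weaker, 90.0% were in no other list.

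Cebpa, Cebpb and Cebpd had no E2f4 summit in their windows in any library. The nearest to Cebpd was −249.9 kb away by Mcm4, a replication helicase gene, in KO replicate 2 and in both WT libraries. These summits, at 15637385 in KO replicate 2 and 15637374 and 15637337 in WT replicates 1 and 2, also lie next to the lower-coordinate end of Prkdc at 15637444. In KO replicate 1 the nearest was 5423 kb away by Ephb3. The nearest to Cebpa was 277.5 kb away by Faap24, a Fanconi anaemia gene, in KO replicate 2 and WT replicate 2, while in KO replicate 1 it was 2988 kb away by Ccne1 and in WT replicate 1 it was the Cebpg peak at −62.7 kb. For Cebpb it was −783 kb away by Cse1l in both KO libraries, −56.8 kb by Ube2v1 in WT replicate 1 and −151 kb by Snai1 in WT replicate 2.

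The genes whose 4 covered shares were most like those of a member were named by Euclidean distance, in percentage points over 2 marks and 2 genotypes. They were Pde4c (1.84) and Rbpjl (2.06) for Cebpa, Slc25a42 (1.96) and Nkpd1 (2.08) for Cebpb, and Rlf (0.626) and Dph3 (0.852) for Cebpd. They were Gm46731 (1.33) and 2900026A02Rik (1.37) for Cebpg, and Gm51999 (0.694) and Lrfn3 (1.23) for Ddit3. Between members the closest pairs were Cebpg with Ddit3 at 9.36 and Cebpa with Cebpb at 12.5, and the farthest was Cebpa with Cebpd at 51.7. The median distance to all genes was 56.3 for Cebpa, 46.7 for Cebpb, 14.4 for Cebpd, 31.1 for Cebpg and 30.8 for Ddit3. Cebpd lay farther than its median from every other member. The named genes were the nearest found in a search over all genes that left out the members. Their smaller distances were therefore nearly fixed in advance and say nothing about the family.

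Among the neighbours, Mzt2 and Spidr were called shorter in KO for H3K27ac over 50 kb, beside 13.3% of all genes. Their windows overlap that of Cebpd and count regions of it again, so these calls are not separate from the Cebpd one. Over 50 kb, none of the other 10 coding neighbours was called for either mark. Within 5 kb of their ends, some of these, with at least 1000 bp, passed 1.5-fold with the longer length in KO. For H3K4me2, beside 10.8% of all genes, Pepd had 9819 bp in KO and 5070 bp in WT. Kif5a had 5207 and 3059 bp, and Dctn2 6776 and 3630 bp, in the same order. For H3K27ac, beside 11.8% of all genes, Arhgap9 had 3949 bp in KO and 2143 bp in WT. Within 5 kb of its ends Spidr, a repair gene, had 13808 bp of H3K27ac in KO and 23144 bp in WT, and Mzt2 had 1554 bp in KO and 1557 bp in WT. Prkdc had 1334 bp in KO and 1298 bp in WT. Tmem189 by Cebpb had 7413 bp in KO and 9689 bp in WT.

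Of 13 partners and regulators of C/EBP and related factors, none was called for H3K4me2 and 1 was called shorter in KO for H3K27ac, beside 13.3% of all genes. That was Trib3, a pseudokinase gene induced by stress, with 6703 bp in KO and 14053 bp in WT (log2 ratio −1.07). The list had a median log2 ratio of 0.01 for H3K4me2 and −0.26 for H3K27ac, beside 0.10 and −0.06 over all genes. Atf4, an inducer of Ddit3, had 19523 bp of H3K27ac in KO and 18069 bp in WT. Of 11 stress response genes, none was called for H3K4me2 and 3 were called shorter in KO for H3K27ac, beside 13.3% of all genes, with a list median of −0.07. These were Asns, the asparagine synthetase gene, with 676 bp in KO and 7281 bp in WT, Trib3, and Hspa5, which encodes a chaperone of the endoplasmic reticulum, with 18086 bp in KO and 27958 bp in WT.

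Of 16 liver genes known as C/EBP targets, 2 were called shorter in KO for H3K4me2 and 1 was called longer for H3K27ac, beside 3.27% and 7.35% of all genes. Orm1 had 9984 bp of H3K4me2 in KO and 19732 bp in WT, and Serpina1a had 11818 bp in KO and 19411 bp in WT. Saa1 had 25081 bp of H3K27ac in KO and 14628 bp in WT. All 3 are genes of secreted acute phase or serum proteins that lie among near-identical copies, between which reads can be split or lost, so their values are uncertain. The list had a median log2 ratio of −0.02 for H3K4me2 and 0.24 for H3K27ac. Alb, the albumin gene whose promoter drives the Cre, had 79207 bp of H3K27ac in KO and 64877 bp in WT.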

How the data were processed

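Peak lists of 8 immunoprecipitations in mouse liver were used, and the 8 input samples, for which no lists were given, were not analysed here. Groups and E2f4 replicate numbers came from the sample titles. Tissue was frozen and then fixed with formaldehyde, and hepatocytes were isolated, per the labels' protocols. Bowtie2 2.2.3, Picard, MACS2 2.0.10.20131216, HOMER and build mm10 are named without roles in the submitters' processing notes. Each library had its own deposited list. The deposited lists give a fold enrichment per peak (a ratio), −log10 p-values and −log10 q-values, and a deposited score that was not used. Fold and −log10 q-value described or ranked peaks within 1 list. As alternatives, the same −log10 q-value limit was applied to KO and WT lists, although these values move with depth and enrichment, so that a limit can keep a region in 1 list and drop it in the other. Depth is unknown, and a list from a shallower library holds fewer peaks.

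Gene ends came from an NCBI RefSeq table of GRCm38.p6, in which all 5 symbols matched, and strands and promoters from its promoter table, in which 4 of 5 matched. Base pairs covered by the deposited regions over each gene and within 50 kb of its ends were counted, without joining nearby regions. Log2 ratios of KO over WT were taken for genes with at least 1000 bp in either library. Regions overlapped when they shared at least 1 bp. E2f4 summits were compared by an exact permutation test. The scripts used Python 3.11.15, numpy 2.4.6, pandas 2.3.3, scipy 1.17.1 and matplotlib 3.10.9, and the coverage functions were tested on simulated data. Named genes were the 5 members, coding genes overlapping their windows, list genes past 1.5-fold (at most 3 per list and direction), and the 2 genes nearest each member in covered shares. Atf4, Alb and the genes nearest to E2f4 summits were named as well, chosen after their values were seen. Ero1l matched under the newer symbol Ero1a. Alternatives were other windows, thresholds, list lengths, overlaps and folds, each E2f4 library left out and a replicate block. The members, lists and tests were chosen with earlier results of these data known.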

Additional observations from a re-analysis of the deposited data

How the results depend on the processing

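H3K27ac called 1 member in the main comparison, 0 within 5 kb, 2 (Cebpb and Cebpg) with −log10 q-values of at least 5, 2 (Cebpb and Cebpd) at the looser of the other fold limits tried and 0 at 2-fold. Where the count stayed at 1 with −log10 q-values of at least 10, the gene was Cebpg. Within 5 kb, 16.5% of all genes were called shorter in KO for H3K27ac. The shares of all genes at the q-value limits and the other fold limits were not computed for either mark. H3K4me2 called 0 members and 1 (Cebpg) with −log10 q-values of at least 10. At Cebpg that limit dropped the WT H3K4me2 regions of 2288 and 1641 bp (2.01 and 8.60). The KO regions that overlap them, of 10071 and 1967 bp, stayed (13.4 and 17.2). For H3K27ac, both limits dropped the Cebpg KO regions of 943 and 1745 bp (2.89 and 4.09). The overlapping WT regions of 1112 and 2229 bp stayed (11.1 and 10.6). Why these q-values differ between the genotypes was not tested. With q-value limits fewer, stronger regions remain, and the share of WT H3K27ac regions overlapping KO was then 83.3% with −log10 q-values of at least 10 in both lists, 93.8% for WT regions of at least 5 against the full KO list and 100% for those of at least 10. For H3K4me2 the share was 100% with at least 10 in both lists, with WT regions of at least 5 or 10 against the full KO list, and within 10 kb. The shares of the whole lists at these limits were not computed. Of all WT H3K27ac regions with a −log10 q-value of at least 7.65, 1.74% had no overlapping KO region. A near-complete overlap of strong H3K27ac regions was therefore not particular to the members. The E2f4 difference was 0 with lists of equal length and lay between −2 and 0 over the 4 leave-one-out values. Pairing libraries by number (replicate block) left it at −1 with an exact sign-flip p of 1, and the labels do not say what a number shares. That p too was fixed, since 1 library alone held summits. Over the windows, q-value limits, equal lengths and the subtraction of the median of all genes, the last chosen after seeing the data, the sign was kept in 6 of 6 alternatives except for H3K4me2 at Cebpa (4 of 6) and H3K27ac at Cebpb and Ddit3 (5 of 6). The H3K27ac log2 ratio at Cebpb was 0.08 within 5 kb and that at Ddit3 −0.02. Single libraries and unknown depth limit every histone value.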
